A study of Drosophila melanogaster with 2 samples.

Results

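The 9 genes described here carry the growth signal of insulin and of the kinase TOR in Drosophila melanogaster: InR, chico, Akt, S6k, foxo, REPTOR, Myc, Thor and Sesn. They were taken by name, as 9 of 13945 protein-coding genes of the annotation, and the regions counted for each are those whose summit lies in the gene body or up to 2 kb upstream. The data are chromatin immunoprecipitation with sequencing (ChIP-seq) of Jim, a C2H2 zinc finger transcription factor. Both samples are whole larvae at the wandering stage of the third instar, of the strain jim-GFP, males and females pooled, which stably express Jim with GFP fused at its C terminus, and the description field names an anti-GFP antibody. The labels differ here, since the antibody field names jim. They form 1 group of 2 biological replicates, numbered 1 and 3, with no second genotype, treatment or stage, so no difference between conditions can be tested. The sources used here do not state which promoter drives the fusion or which cells express it, and the age is labelled as unknown. Whole larvae mix all tissues, so a region cannot be assigned to a cell type.

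Insulin-like peptides bind the receptor InR, and the substrate protein Chico links the receptor to PI3K and the kinase Akt. Akt keeps the forkhead factor FOXO out of the nucleus. When insulin signalling is low, FOXO enters the nucleus and raises transcription of InR and of Thor, the translational repressor 4E-BP. TOR complex 1 phosphorylates S6k and Thor and restrains REPTOR, a transcription factor that acts when TOR is inhibited, while Sesn (Sestrin) inhibits TOR under stress. Myc drives ribosome production and cell growth in the larva.

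Windows at some of the summits are shown because they place the values that follow on sequence. Each is the RefSeq Release 6 sequence (dm6), 5′ to 3′ on the strand of the gene. The InR, foxo and Akt windows span up to 50 bp to each side of a summit, less any bases in an untranslated region. The Thor and REPTOR stretches are 24 bases around a match. Capitals mark 4 searched motifs or their complements: TGTTTAC (a forkhead site), GAGAG (a GA repeat), CACACACA (a CA repeat) and AAAAAAAA (an A tract).
Thor start, chr2L:3478521-3478544: cagtttgtGTAAACAatcaaattg
REPTOR internal start, chr3R:24571996-24572019: agagcgcaGAGAGAGcaaaaagcc
InR intron, strongest, chr3R:21616233-21616333: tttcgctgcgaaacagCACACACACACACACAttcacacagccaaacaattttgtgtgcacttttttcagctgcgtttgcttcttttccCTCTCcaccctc
InR intron, next strongest, chr3R:21606812-21606912: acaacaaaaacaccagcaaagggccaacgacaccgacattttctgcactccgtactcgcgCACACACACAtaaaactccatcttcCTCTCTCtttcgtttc
InR intron, between internal starts, chr3R:21590815-21590915: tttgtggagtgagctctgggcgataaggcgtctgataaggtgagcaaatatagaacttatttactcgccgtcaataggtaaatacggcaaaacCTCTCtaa
foxo start, part upstream of the transcript, chr3R:14056866-14056944: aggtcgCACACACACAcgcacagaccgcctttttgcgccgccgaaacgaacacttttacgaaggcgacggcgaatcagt
foxo intron, chr3R:14061517-14061617: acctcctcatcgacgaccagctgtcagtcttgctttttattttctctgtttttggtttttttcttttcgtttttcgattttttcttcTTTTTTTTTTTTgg
Akt upstream, chr3R:16097751-16097851: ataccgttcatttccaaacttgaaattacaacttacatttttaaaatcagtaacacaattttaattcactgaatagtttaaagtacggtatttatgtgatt

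The forkhead match of Thor reads GTAAACA on the gene's strand and lies 24 bp from the summit, in the 5 prime UTR. It was the 1 forkhead match among 16 summits, counted within 50 bp, where 4.34% of all 1476 IDR summits held one. The GA repeat stood at 5 of 16 summits, namely 4 of InR and the REPTOR summit, against 25.5% of all. The CA repeat stood at 3, the InR pair with the highest signal and the foxo start, against 7.18%, and the A tract at 2, the foxo intron and the Myc 3 prime UTR, against 17.4%. TATCGATA and CACGTG stood at 0 of 16, against 1.63% and 1.36%. With any of the 6 motifs counted, 9 of 16 summits held one, against 47.1% of all IDR summits. The motifs were chosen with results of these data known, and the GA and CA matches are repeats that can overlap one another. A match describes the letters, not a site in use. The median GC content of these windows was 44.6% at the 16 summits, which ran from 24.8% at Akt to 64.4% in InR, and 45.5% over all IDR summits.

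Of the 9 genes, 8 held at least 1 region of the IDR list, the list of 1476 regions thresholded on the irreproducible discovery rate between replicates. Its regions are also the 1476 strongest of the list from both replicates pooled. Among all protein-coding genes, 10.8% held an IDR region. Long genes hold one more often: the share was 6.92% below 5 kb, 19.0% from 5 to 20 kb and 28.0% from 20 to 50 kb. Thor but not chico held one in the shortest class, all 3 of Akt, S6k and Myc in the middle class, and all 4 of Sesn, REPTOR, foxo and InR in the longest. The 8 genes held 16 IDR summits, 7 of them in InR, in 188.7 kb of gene body and upstream sequence of all 9. This is 0.0848 per kb, against 0.0110 per kb over the 6 chromosome arms, which include sequence outside genes. Per gene, protein-coding genes held a mean of 0.0750 IDR summits below 5 kb, 0.241 from 5 to 20 kb and 0.456 from 20 to 50 kb. A summit lay within 500 bp of an own transcript start in 7 of the 9 genes, where 6.96% of protein-coding genes had one. The members were proposed with these results known, so the counts describe them and carry no test.

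The signal is the deposited height of a region, whose scale differs between lists, so ranks (1 is the strongest) are compared across lists. Signals of the 16 summits ran from 69.3 to 206.8 with a median of 98.3, and the median of the IDR list was 85.9. Of the 16, 13 ranked in the stronger 738 of the IDR list. In the pooled list all 9 genes held a region of any strength, as did 67.1% of protein-coding genes. The map of each gene shows where these regions lie.

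**Figure D1:**
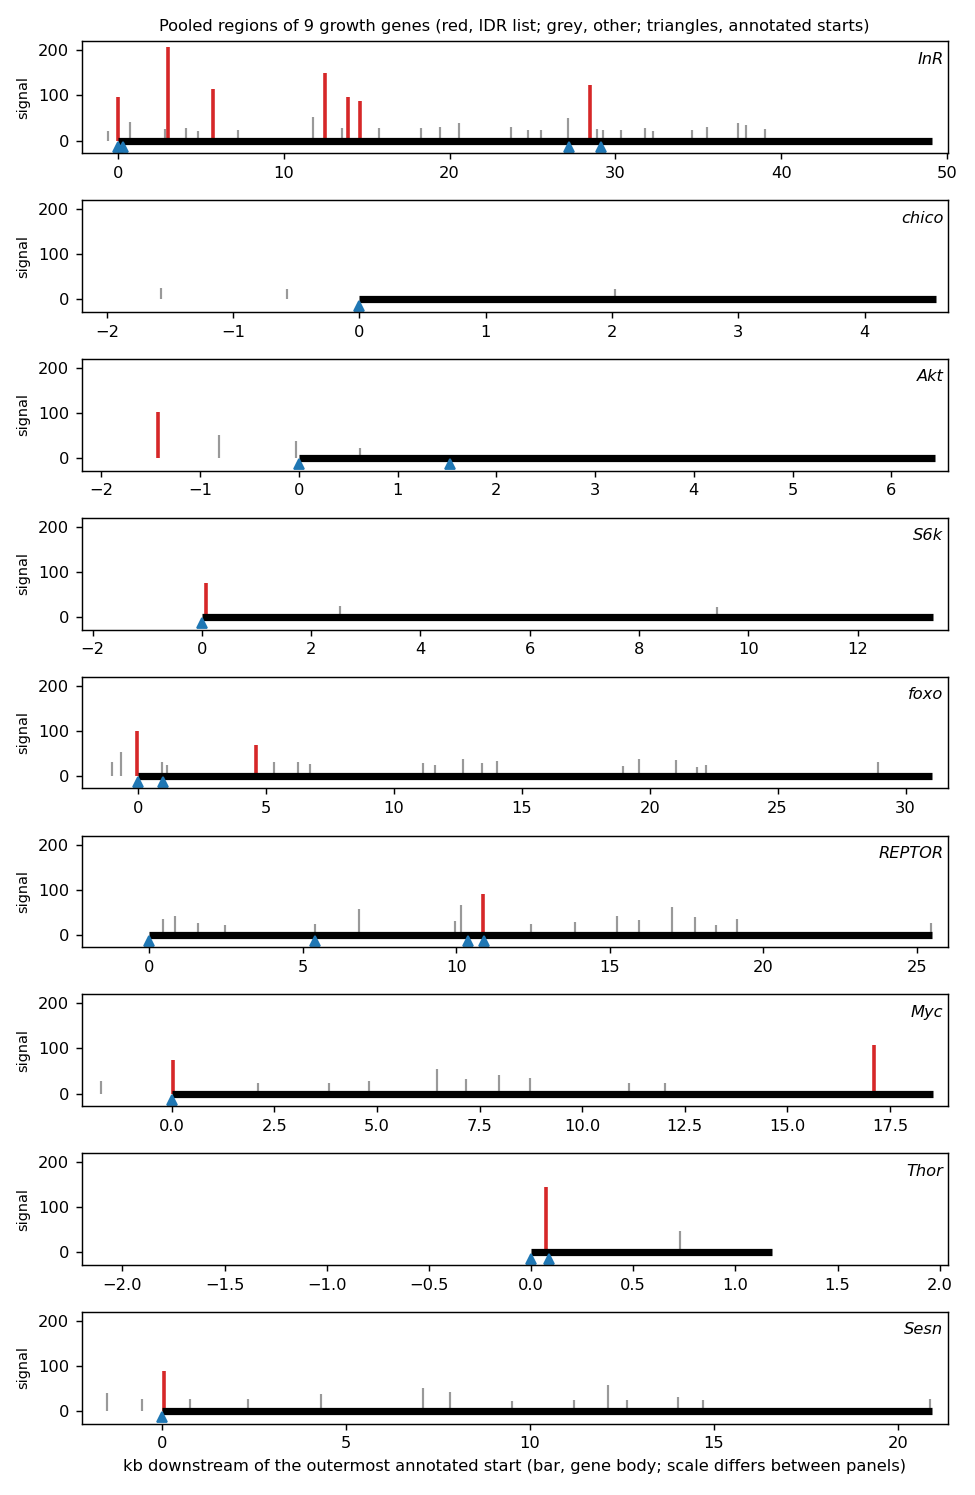
Signal of each pooled region (vertical lines, on the scale of the authors' caller) by distance in kb from the outermost annotated start of the gene, for the 9 genes. Black bars are gene bodies, blue triangles annotated starts, red lines the 16 IDR regions and grey lines the 94 others; InR carries 7 red lines and chico none.

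The receptor gene InR (FBgn0283499, minus strand of 3R, 21570248 to 21619321) held 7 IDR summits in 51.1 kb. Its density of 0.137 per kb was 12.4 times that of the arms, which include sequence outside genes. Protein-coding genes of 20 to 50 kb held a mean of 0.456 IDR summits, and InR lies near the long end of that class. Of protein-coding genes, 5 held at least 7, InR among them, and 1 of these was shorter than InR, which is 49.1 kb long. Of the 321 genes at least as long as InR, 4 held at least as many, InR included. The 7 regions fall into a start region, an intronic series and a region between the internal starts.

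The strongest InR region (21616153 to 21616412) had a pooled signal of 206.8. It ranked 59 pooled, 42 in replicate 1 and 121 in replicate 3, the highest place of any of the 16 in each of these lists. It lies in the intron that follows the outermost exons, 2753 bp downstream of the nearest InR start, and 543 bp upstream of the start of lncRNA:CR44034, a noncoding RNA gene inside that intron. This intron is 15.2 or 15.4 kb long, depending on the transcript, and it held 5 of the 7 summits.

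The other 4 of the intron stood farther from that start. The region at 21606732 to 21606991 had a signal of 149.1 and ranked 150 pooled, 141 in replicate 1 and 381 in replicate 3. The regions at 21605302 to 21605561 and 21604592 to 21604851 had signals of 96.7 and 86.8. Summits of these 3 regions lie 1430 bp and 710 bp apart, while the next IDR summit on the side of the gene's 3 prime end is 13857 bp away. All 3 ranked higher in replicate 1 than in replicate 3, and the last of them stood at 461 in replicate 1 and 2187 in replicate 3. The region at 21613444 to 21613703, with a signal of 114.4, did the opposite, with rank 1582 in replicate 1 and 208 in replicate 3.

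InR has 4 annotated starts, and they differed in signal. The upstream pair, 285 bp apart, share an IDR region (21619175 to 21619434, signal 96.9), whose summit lies 16 bp inside the outermost transcript. It ranked 544 pooled, 958 in replicate 1 and 441 in replicate 3. The start 27200 bp farther in had a pooled region 85 bp upstream with a signal of 49.4, at rank 2675, and replicate 3 had no summit within 500 bp of it. The innermost start, at 29130 bp, had a region of signal 26.0 at rank 15609. Between these internal starts, 674 bp upstream of the innermost one, lies an IDR region (21590735 to 21590994) with a signal of 123.5, at rank 659 in replicate 1 and 136 in replicate 3. The strong region of this part of the gene thus stands between the annotated internal starts and not within 500 bp of either.

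Adaptor gene chico (FBgn0024248, minus strand of 2L, 10242512 to 10247078) held no IDR summit. Its 3 pooled regions had signals of 25.9, 23.7 and 22.9, at ranks 15727, 20497 and 22793, and no region of any list had its summit within 500 bp of the chico start. The best rank was 16769 in replicate 1 and 10401 in replicate 3. The nearest IDR region upstream lies 3719 bp from the start, well beyond the 2 kb bound, with a signal of 105.4 at rank 425. It stands 4 bp from the start of CG31717, with bsk, which encodes the Jun kinase, between it and chico.

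The kinase genes had 1 IDR summit each. For Akt (FBgn0010379, 3R, 16099228 to 16105670) the region at 16097671 to 16097930 lies 1427 bp upstream of the gene, with a signal of 102.0. It ranked 1430 in replicate 1 and 304 in replicate 3. Its summit is inside an intron of the neighbour Mhcl, a myosin heavy chain-like gene on the other strand, whose start is nearer, at 960 bp. With the gene body alone Akt held none. At the Akt start itself, 34 bp upstream, stood a weaker region with a signal of 37.7 at rank 5249, and the internal start had no region within 500 bp.

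For S6k (FBgn0283472, minus strand of 3L, 5797549 to 5810931), the kinase of ribosomal protein S6, the region at 5810729 to 5810988 has its summit 72 bp inside the transcript. Its signal of 74.6 gave rank 1069 pooled, 1071 in replicate 1 and 1644 in replicate 3. The rest of the gene held 2 pooled regions, both below a signal of 24 and neither with its summit in a region of both replicates. S6k was also the member with the fewest pooled regions for its length, 0.195 per kb against 0.224 per kb over the arms.

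Among the transcription factors, foxo (FBgn0038197, 3R, 14056945 to 14087978) held 2 IDR summits. The region at its outermost start (14056786 to 14057045, signal 99.8) has its summit 29 bp upstream and ranked 508 pooled, 1030 in replicate 1 and 482 in replicate 3. The other annotated start, 974 bp downstream, had a region of signal 31.7 at rank 8564. The second IDR region (14061437 to 14061696, signal 69.3) lies in an 8.43 kb intron, 3648 bp from the nearer start. It rests mainly on replicate 3, where it ranked 524. In replicate 1 no region contained its summit, and an overlapping region with its summit 134 bp away ranked 2851. Replicate 1 in turn had a region 696 bp upstream of foxo at rank 1105, which reached only rank 2392 in the pooled list.

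REPTOR (FBgn0039209, minus strand of 3R, 24557368 to 24582864) has 4 annotated starts, and its IDR region lies at the innermost. The region (24571875 to 24572134, signal 89.3) has its summit 40 bp upstream of the start that lies 10899 bp into the gene. It ranked 682 pooled, 636 in replicate 1 and 806 in replicate 3, so the replicates placed it alike. A neighbouring region (24572576 to 24572835), 211 bp upstream of the start at 10369 bp, had a signal of 65.2 and rank 1480, just outside the 1476 of the IDR list. Both replicates alone placed a region there among their 1476 strongest, at ranks 1212 and 762. The outermost start had its best region 450 bp inside the transcript, with a signal of 34.4, and the start at 5411 bp had one of 24.6.

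Myc (FBgn0262656, X, 3373159 to 3391697) held an IDR region at each end of the gene. The stronger (3390151 to 3390410, signal 108.5) lies 17122 bp from the start, in the 3 prime UTR, and ranked 403 pooled, 438 in replicate 1 and 487 in replicate 3. This stretch is also 3 prime UTR of CG12535 on the other strand and intron of lncRNA:CR44999, so the region cannot be tied to 1 gene by position. The region at the start (3373066 to 3373325, signal 74.7) has its summit 37 bp inside the transcript and ranked 722 in replicate 1 and 1721 in replicate 3. lncRNA:CR44999 shares this start with Myc.

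Thor and Sesn, the inhibitors of growth, had an IDR region at the start of the gene. For Thor (FBgn0261560, 2L, 3478434 to 3479612) the region (3478375 to 3478634) had a signal of 145.4, the highest at a start among the 9 genes. It ranked 157 pooled, 305 in replicate 1 and 143 in replicate 3. Thor has 2 annotated starts 88 bp apart, and the summit lies between them, 71 bp downstream of one and 17 bp upstream of the other. The summits of the 3 lists fell within 1 bp of each other. A weaker region, 642 bp downstream of the nearer start, had a signal of 46.7 at rank 3075, and its summit lay in a region of both replicates.

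For Sesn (FBgn0034897, 2R, 23713900 to 23734846) the region (23713798 to 23714057, signal 90.1) has its summit 28 bp inside the transcript and ranked 668 pooled, 645 in replicate 1 and 846 in replicate 3. The start is shared with CG46429. The next strongest region, 12123 bp into the gene, had a signal of 58.8 at pooled rank 1828, with rank 13965 in replicate 1 and 1541 in replicate 3. Of 14 other pooled regions in Sesn, 6 had their summit in a region of both replicates.

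Seen by annotated start, the 9 genes have 18 starts. An IDR summit lay within 500 bp of 10 of them, another 6 had only a weaker pooled summit, and 2, those of chico and of the internal Akt transcript, had none. The 10 rest on 7 IDR summits, since close starts within InR, REPTOR and Thor share one. A share over all annotated starts was not computed. By gene, 7 of the 9 had such a summit, beside 6.96% of all protein-coding genes. In InR and foxo the outermost start had the higher signal, while in REPTOR an internal one did. Of the 16 summits, 10 were as near to an own start as to the start of any other gene, ties included. The share over all IDR summits was not computed.

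**Figure D2:**
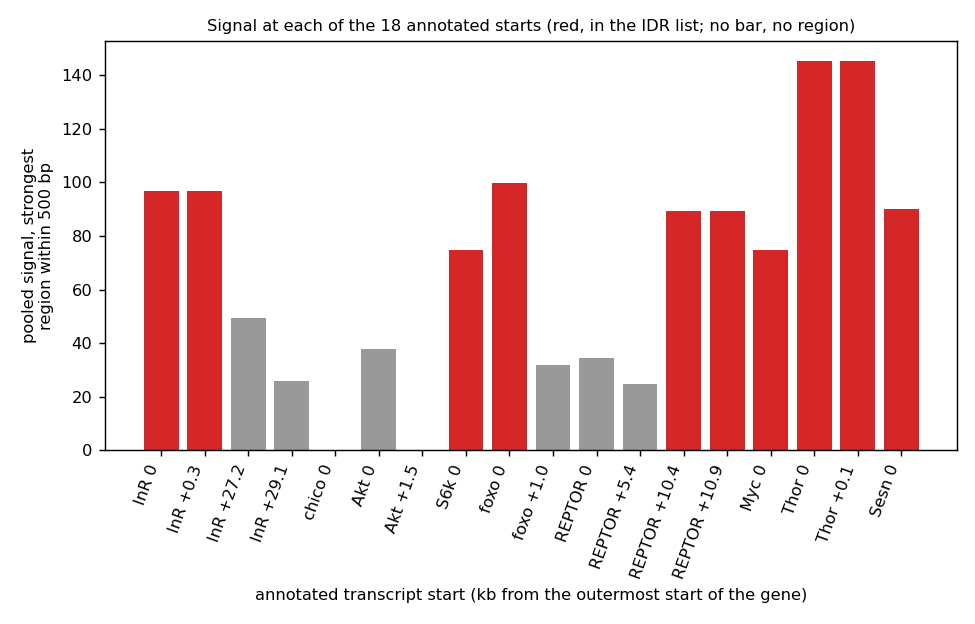
Signal of the strongest pooled region within 500 bp of each of the 18 annotated starts (bars, on the scale of the authors' caller), labelled by gene and by kb from the outermost start. Red bars are IDR regions and grey bars weaker ones; close starts of InR, REPTOR and Thor share a region, and Thor has the highest bars at 145.4.

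The replicates shared nearly all of the 16 summits but differed in rank. The IDR list holds the 1476 regions with the highest signal in the list pooled from these same replicates. Sharing was thus favoured by how the list was made and is no independent result, though presence in each replicate was not required of every region. A region of both replicates contained 15 of 16, the foxo intron being the exception, against 92.6% of all IDR peaks. Both placed 11 of 16 among their 1476 strongest regions, against 50.1% of all. Replicate 1 alone placed 14 there and replicate 3 alone 13. Shares of all IDR peaks for each replicate alone were not computed. By pooled signal, 13 of the 16 ranked in the stronger 738 of the IDR list. The part of rank in the 11 of 16 was not tested. In the 15 shared, ranks in replicate 1 ran from 42 to 1582 with a median of 645. Ranks in replicate 3 ran from 121 to 2187 with a median of 482. Replicate 1 gave the higher place in 9 of the 15, and the share over other shared peaks was not computed. Replicate summits lay a median of 11 bp apart, from 1 to 61 bp, where the median of the other 1352 shared IDR peaks was 26 bp. Signals of the 2 replicates had a Spearman correlation of 0.12 over the 15 summits and 0.25 over those other peaks. All are among the 1476 strongest by the pooled signal of the same replicates, so these values do not measure agreement over all regions. The 15 points share 2 libraries, and 7 of them share a gene.

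**Figure D3:**
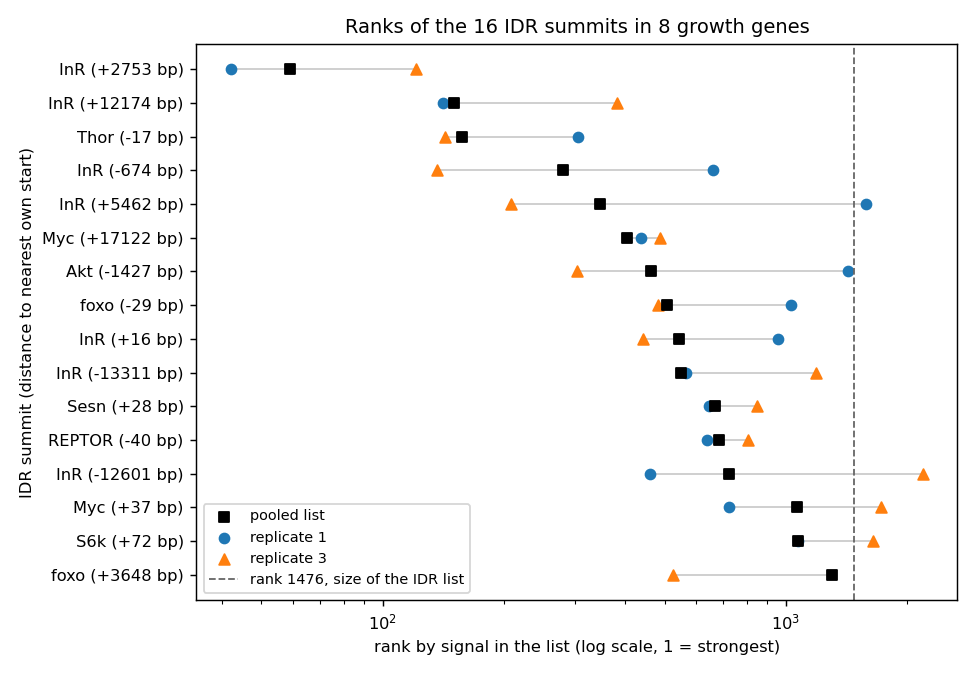
Rank by signal (log axis, 1 is the strongest) of the 16 IDR summits in the pooled list (squares), replicate 1 (circles) and replicate 3 (triangles), with the distance to the nearest own start. Of the 16, 11 have both replicate points left of the dashed line at 1476; the foxo intron has no replicate 1 point, and at S6k the circle of replicate 1, at 1071, lies under the square.

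Below the IDR list the 9 genes held 94 further pooled regions, 75 of them in introns and 4 in coding sequence. Shares by feature over all pooled regions were not computed, so these 2 counts only describe the members. Of the 94, 32 (34.0%) had their summit in a region of both replicates, against 22.4% of all pooled regions outside the IDR list. The 94 also ranked higher, with a median rank of 12486 against 15739, and the part of rank in this share was not tested. InR held 26 of them, 5 in both replicates, and REPTOR held 17, with 6. Per kb, pooled regions of any strength were 2.04 to 2.92 times as dense as over the arms in 8 genes, chico included, and 0.870 times in S6k. The arms include sequence outside genes. Per gene, protein-coding genes held a mean of 1.01 pooled regions below 5 kb, 3.42 from 5 to 20 kb and 9.39 from 20 to 50 kb.

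Best ranks in the pooled list and both replicates were compared over 6948 protein-coding genes with a region in all 3 lists. The measure was the distance between log10 ranks, and the gene most like InR was tou, with ranks 65, 38 and 162, a distance of 0.140 and 6 IDR summits. CG8004 and RhoGDI followed at 0.146 with the ranks 71, 43 and 160 of a region they share.

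A wider list held 62 other genes of the insulin and TOR pathway, of which 60 matched the annotation, Tor through its newer symbol mTor. Of the 60, 18 held an IDR summit in the body or 2 kb upstream and 13 within 500 bp of an own start, beside 10.8% and 6.96% of all protein-coding genes. Their median length was 4.73 kb. The list was written with earlier results of these data known, and no test was made on it.

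The ligand genes are short, with a median length of 1.045 kb, and below 5 kb only 6.92% of protein-coding genes held an IDR summit. The insulin-like peptide genes Ilp1 to Ilp8 and the genes of the secreted binders ImpL2 and Sdr gave 0 of 10, a count near that share. A pooled region was held by 7 of the 10, near the 67.1% of all genes. In the arm from PI3K to Akt, of median length 8.29 kb, 6 of 12 held an IDR summit, beside 19.0% of genes of 5 to 20 kb. Pi3K21B, the regulatory subunit of PI3K, had the strongest region of the wider list (2L, 297747 to 298006), with a signal of 165.6, 3 bp from its start, at ranks 54 and 406 in replicates 1 and 3. The steppke gene step, whose product is an Arf exchange factor of insulin signalling, had 119.1 at 2 bp. melt and 14-3-3epsilon had 98.9 and 98.3 at their starts, Pdk1, the kinase upstream of Akt, 72.5, and trbl, an Akt inhibitor, 71.4 in an intron. The catalytic subunit gene Pi3K92E had none.

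The TOR complexes with TSC and Rheb, counted together with the inhibitor genes scyl and chrb, have a median length of 5.96 kb. Of these 10 genes, 1 had an IDR summit, beside 10.8% of all protein-coding genes and 19.0% of those of 5 to 20 kb. This was scyl, a stress-induced TOR inhibitor of the REDD1 kind, with 115.3 at 23 bp from its start and ranks 340 and 492. Tor, raptor, rictor, Tsc1, gig and Rheb had none, and 6 of the 10 genes held a pooled region of any strength, beside 67.1% of all. Sensing of amino acids and energy, of median length 3.34 kb, had 7 of 15, beside 10.8% of all protein-coding genes and 6.92% of those below 5 kb. Of the 7, path and mnd, of 10.8 and 6.57 kb, fall in the length class with 19.0%, and SNF4Agamma is 73.5 kb long. Of the AMP-activated kinase, the gamma subunit gene SNF4Agamma had 2 IDR summits, the stronger with 117.4 at 2101 bp from a start and the other within 500 bp of one, and the beta subunit gene alc had 73.0 at its start, where no replicate 3 region contained the summit. The alpha subunit gene AMPKalpha had no pooled region in its body or 2 kb upstream. Lkb1, the kinase that activates it, had 86.5 at 205 bp. The transporter genes path and mnd had 78.7 and 83.8 at a start, and slif had no IDR summit. mio and Nprl3, of the GATOR complexes that act on TOR, had 104.1 and 110.0. The Nprl3 summit lies 1793 bp upstream and nearer to upSET, and that of mio is 4 bp from the start of CG42371.

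Outputs, of median length 8.385 kb, had 4 of 13, with 1 at a start, beside 19.0% of genes of 5 to 20 kb with a summit anywhere in the span. RpS6, the substrate of S6k, had 91.7 at 54 bp, at rank 263 in replicate 1 and 4354 in replicate 3. Mnt, the antagonist of Myc, had 79.8 in an intron, Maf1, a repressor of RNA polymerase III, 67.2 in a 3 prime UTR, and crc, the ATF4 homologue, 71.5 at 809 bp upstream, which is 7 bp from the start of Mondo. In 17 of the 18 genes the strongest summit lay in a region of both replicates, beside 92.6% of all IDR peaks. In 10 it was among the 1476 strongest of both, beside 50.1% of all IDR peaks.

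**Figure D4:**
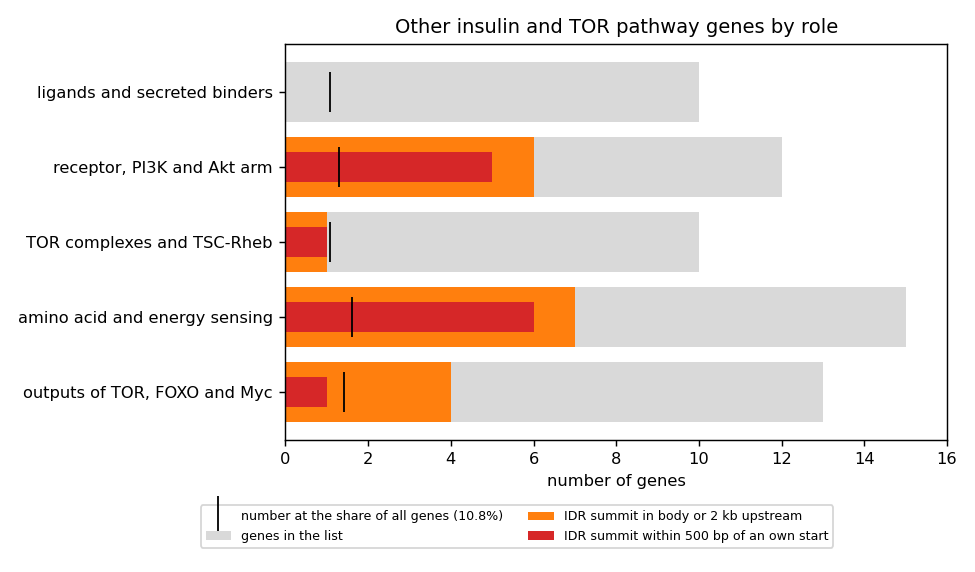
Number of other insulin and TOR pathway genes by role (grey bars, all 60), with an IDR summit in the body or 2 kb upstream (orange, 18) and with one within 500 bp of an own start (red, 13). Black ticks show the number that the 10.8% of all protein-coding genes would give for each role; the ligands have no coloured bar.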

How the data were processed

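Regions came from 4 narrowPeak lists on dm6. Per the deposited text notes, each of the 2 replicate lists derives from that replicate and a control, a pooled list from both replicates and a control, and the IDR list from these 3. The deposited signal (column 7) gives a region's height in units of the authors' caller. The sources used here name no caller, aligner or IDR threshold. Read depth is unknown, so no detection limit is given. Labelled size ranges were 175 to 275 bp (replicate 1) and 200 to 325 bp (replicate 3).

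All 1476 IDR regions had the same ranks as in the pooled list. Genes and starts on the 6 main arms came from Ensembl release 115 (BDGP6.54), without transposable elements. A summit is the region start plus the deposited offset, printed from 1. Of IDR regions, 95.2% were 260 bp wide, so width was not read as a result. The median width was 210 bp in replicate 1 and 260 bp in replicate 3. A replicate 1 region thus covered fewer bases in which a summit could fall. The part of this in the counts of shared summits was not tested. A motif counted when found on either strand within 50 bp of a summit. The dm3 lists were not used. No test was made: there is 1 group and no contrast, and the members, lists, motifs and length classes were chosen with earlier results of these data known. Named are all 9 members, every wider-list gene with an IDR summit, neighbouring genes at summits, and the 3 genes whose ranks were most like those of InR. Wider-list genes without a summit are named as examples of their role, chosen after their values were seen. The counting steps were tested on simulated data. Python 3.11.15, pandas 2.3.3, numpy 2.4.6, pysam 0.24.0 and matplotlib 3.10.9 were used.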

Additional observations from a re-analysis of the deposited data

How the results depend on the processing

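Over 33 alternatives to 7 counts, 30 stayed within 1.5 times the value reported. With the pooled list taken to rank 2952, the 9 genes held 26 summits in place of 16, since more regions were counted, and 18.4% of protein-coding genes held one. With only the 738 strongest IDR regions, 10 wider-list genes held a summit in place of 18, while the share of protein-coding genes was 5.88% in place of 10.8%. With a motif window of 25 bp to each side, 3 of 16 summits held a motif in place of 9, against 27.4% of all IDR summits. Leaving out a replicate, and taking the 1476 strongest regions of the other, gave 7 to 8 members with a summit, 14 to 16 summits and 17 to 18 wider-list genes. The share of protein-coding genes with a summit was then 10.64% without replicate 1 and 10.96% without replicate 3. At an own start, 5 to 7 members had one, and all 9 members kept a pooled region. Shares of all genes were not computed for these last 2 counts. Without replicate 1, S6k held none. Counted in the gene body alone, 7 members held an IDR summit, Akt being lost, beside 5.61% of protein-coding genes. In the wider list 12 genes then held one in place of 18, a change counted among the 30 that stayed. With 5 kb upstream, 9 members held one, chico being gained, beside 13.97% of protein-coding genes. No paired analysis was possible because there is 1 group. The unknown read depth limits what the absence of a region, as at chico, can show.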

Other observations

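In 4 of the 18 wider-list genes with an IDR summit, the strongest summit lay nearer to the start of another gene than to an own start, as it did at Akt (Mhcl) and InR (lncRNA:CR44034). The share over all genes with an IDR summit was not computed. The region counted for crc (2L, 21309927 to 21310186) stood 7 bp from the start of Mondo, which encodes a glucose-responsive transcription factor, and that for mio (2L, 2217120 to 2217379) stood 4 bp from the start of CG42371. The region counted for Nprl3 (3L, 14003543 to 14003802) was 1546 bp from the start of upSET, and that for RpS6 (X, 7901147 to 7901406) was 25 bp from the start of CR33222 and 54 bp from its own. Position alone does not say which gene of such a pair a region belongs to.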
